A study of Mus musculus with 12 samples.

Results

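The 12 subcutaneous tumors of this series were ordered by the RNA of 6 epithelial marker genes, and the 4 tumors with the least of it (epithelial-low) were compared with the 4 with the most (epithelial-high), whatever their doxycycline (dox) treatment. The 6 markers were Cdh1, Epcam, Krt18, Krt19, Cldn4 and Esrp1, and the tumors were chosen by their mean log2(RPKM + 0.25), where RPKM is the read number scaled to exon length in kilobases and to the mapped reads of the library. All tumors grew from KCip53-1, a pancreatic cancer line sorted by its dsRed label from 1 primary tumor of a mouse whose alleles included Ptf1a-Cre, TREp53R270H and R26 rtTa/rtTa, in which dox turns on mutant p53R270H and the wild-type p53 gene has been lost. The no-dox tumors (n = 4) never received dox, the plus-dox tumors (n = 4) received it for 36 days, and the off-dox tumors (n = 4) received it for 33 days and then spent 3 days without it. Dox was given at 0.2 g/L in drinking water with 5% sucrose. The hosts were immunocompromised NSG mice of 8 to 10 weeks, each tumor began as 500000 cells in Matrigel, and each mouse carried 2 tumors, but which tumors shared a mouse is not given in the sources used here. RNA came from whole tumors, so host cells contribute, and fewer epithelial cells cannot be told apart from less RNA of these genes per cell.

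Epithelial cells are held together by adherens junctions, built on the cadherin Cdh1, by tight junctions, whose strands consist of claudins and occludin, and by desmosomes. Ductal pancreatic cancers usually keep this equipment together with the simple keratins and with mucins at the luminal surface. In an epithelial-mesenchymal transition (EMT), transcription factors of the Snail, Zeb and Twist families repress junction genes by binding E-box sequences in their promoters, vimentin and other mesenchymal genes rise, and many carcinoma cells stop at a state with features of both cell types.

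The epithelial-low tumors were plus-dox 2, off-dox 4, off-dox 3 and plus-dox 1, with marker means of 4.10, 5.42, 5.64 and 6.16 on the log2 scale. Their epithelial-high counterparts were off-dox 2, no-dox 4, off-dox 1 and no-dox 2, at 6.74, 7.08, 7.17 and 7.35. Values in individual tumors are given below in these same orders. The other 4 tumors, called middle here, were no-dox 3, plus-dox 4, no-dox 1 and plus-dox 3 and ran from 6.39 to 6.67. The step at the lower edge, from plus-dox 1 at 6.16 to no-dox 3 at 6.39, and the step at the upper edge, from plus-dox 3 at 6.67 to off-dox 2 at 6.74, were both small beside the distance between the 2 lowest tumors, at 4.10 and 5.42. The epithelial-low class therefore holds 2 plus-dox, 2 off-dox and 0 no-dox tumors and the epithelial-high class 2 no-dox, 2 off-dox and 0 plus-dox tumors, so the classes differ in dox treatment as well, and only the off-dox tumors stand on both sides.

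Because the markers chose the classes, their levels are a description. Epcam, an adhesion molecule of epithelial cells, had 7.76, 40.9, 72.3 and 159 RPKM in the epithelial-low tumors against 160, 241, 265 and 388 in the epithelial-high ones. E-cadherin, the product of Cdh1, had 22.1, 42.1, 57.5 and 111 RPKM against 122, 191, 147 and 183. Esrp1, a splicing factor that sets epithelial exon choice, had 0.578, 2.27, 5.49 and 7.50 RPKM against 11.03, 13.1, 14.6 and 20.6. In all 3 genes plus-dox 2 was lowest of the 12 tumors and plus-dox 1 was the nearest of its class to the epithelial-high range. The tight-junction gene Cldn4 was at 1.33, 18.9, 15.6 and 8.81 RPKM against 48.8, 32.4, 63.0 and 45.6. The keratins behaved less uniformly. Krt19 had 179, 98.1, 103 and 170 RPKM against 226, 319, 301 and 352, whereas Krt18 stayed high, at 608, 752, 391 and 616 RPKM against 614, 947, 811 and 791, and its classes overlapped. In plus-dox 2, then, Krt18 RNA was just below the lowest epithelial-high value.

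**Figure D1:**
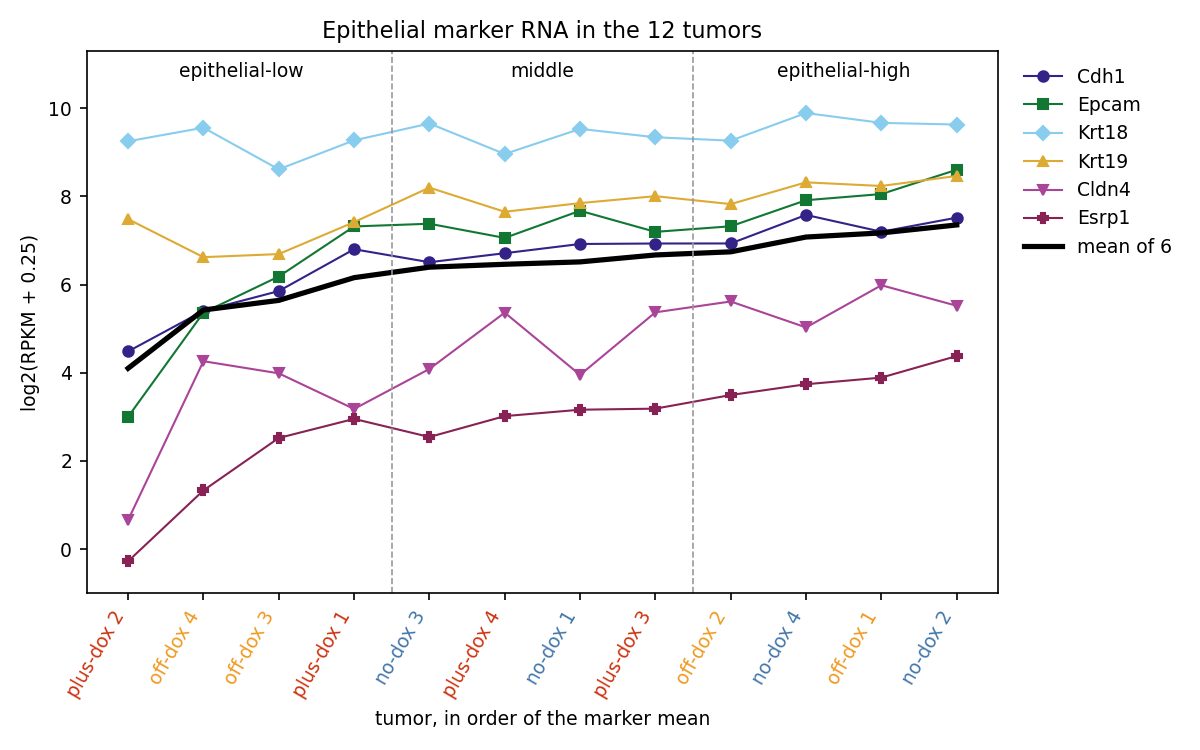
RNA of the 6 epithelial markers and their mean in each tumor, as log2(RPKM + 0.25), with tumors ordered by the mean, tumor names coloured by dox group and dashed lines between the classes of 4. The mean climbs from 4.10 in plus-dox 2 to 7.35 in no-dox 2, Epcam, Cldn4 and Esrp1 are lowest in plus-dox 2, and Krt18 varies little.

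Over the labelled dox groups the marker mean could be tested, since the labels do not depend on it. The no-dox group averaged 6.83 ± 0.46 (SD, n = 4), the plus-dox group 5.85 ± 1.18 and the off-dox group 6.24 ± 0.85, and the groups overlapped. The differences were −0.99 for plus-dox minus no-dox (exact two-sided permutation test over 70 arrangements, p = 0.14, Benjamini-Hochberg adjusted over 3 comparisons 0.43), −0.59 for off-dox minus no-dox (exact p = 0.31, adjusted 0.47) and 0.40 for off-dox minus plus-dox (exact p = 0.66, adjusted 0.66), where the smallest p this design allows is 0.029. Without plus-dox 2 the plus-dox minus no-dox difference was −0.41 and the off-dox minus plus-dox difference changed sign to −0.18. In edgeR's quasi-likelihood test of the counts of all 12 tumors, 0 of the 6 markers met the limits of the study (adjusted p under 0.1, over 1.5-fold) in any pair of groups. Over all 17561 genes tested, 235 (1.34%) met them when off-dox was set against no-dox, 0 (0%) for plus-dox against no-dox and 0 (0%) for off-dox against plus-dox. At an unadjusted p under 0.05 there were 3586, 2400 and 537 genes. DESeq2, the method from which the study took its adjusted p, called 615, 128 and 6. The paper placed its most significant differences between no-dox and plus-dox tumors. The 235 calls lay near the limit, since the smallest edgeR adjusted p was 0.079. They became 0 or 1 when any of the 4 no-dox tumors, plus-dox 4 or off-dox 2, 3 or 4 was left out. They were 19 without plus-dox 3 and 789 without off-dox 1. Genes with an unadjusted p under 0.05 then numbered from 2689 without off-dox 2 to 4301 without off-dox 1. Trp53 lay between 40.1 and 57.4 RPKM in the 12 tumors, and its log2 fold change in plus-dox against no-dox tumors was 0.04 (edgeR adjusted p = 0.89), so the gene's total RNA does not check the dox labels. Whether transgene reads enter this value was not tested.

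Epithelial-low and epithelial-high tumors were then compared over the 14580 other genes with a mean above 0.25 RPKM. A gene was counted as lower or higher when the mean log2(RPKM + 0.25) of the classes differed by more than 2-fold and the 4 tumors of one class did not overlap the 4 of the other. By this rule 153 genes (1.05%) were counted lower and 45 (0.309%) higher in epithelial-low tumors. These counts have no test, because the tumors were sorted by genes that vary with many others. The median difference over all genes compared was −0.00 on the log2 scale, and 50.1% of them were lower by any amount. Without the demand of no overlap 4.22% of genes were more than 2-fold lower and 1.97% more than 2-fold higher. These shares are the background for the gene lists below. In the 4 middle tumors the mean lay between the classes for 151 of the 153 lower and 39 of the 45 higher genes. The marker ranking had placed these tumors between the classes, and the genes were picked for their distance between the extremes. A mean in between is therefore likely from the selection alone, and these numbers are a description. Relative to epithelial-high tumors, the median of the 153 genes was −2.13 in the 2 lowest tumors, −0.99 in off-dox 3 and plus-dox 1 and −0.67 in the middle tumors, and plus-dox 2 had the lowest value of all for 136 of the 153. Among the off-dox tumors alone, where dox treatment is the same on both sides, the medians of the 153 lower and 45 higher genes were −1.42 and 1.20. The direction of each gene there is fixed by the demand of no overlap, so only the size is a description. The counts also depended on single tumors. Without plus-dox 1 they were 629 lower and 134 higher, without off-dox 2 they were 438 and 234, and the higher genes became 113 without off-dox 3 and 68 without off-dox 1.

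**Figure D2:**
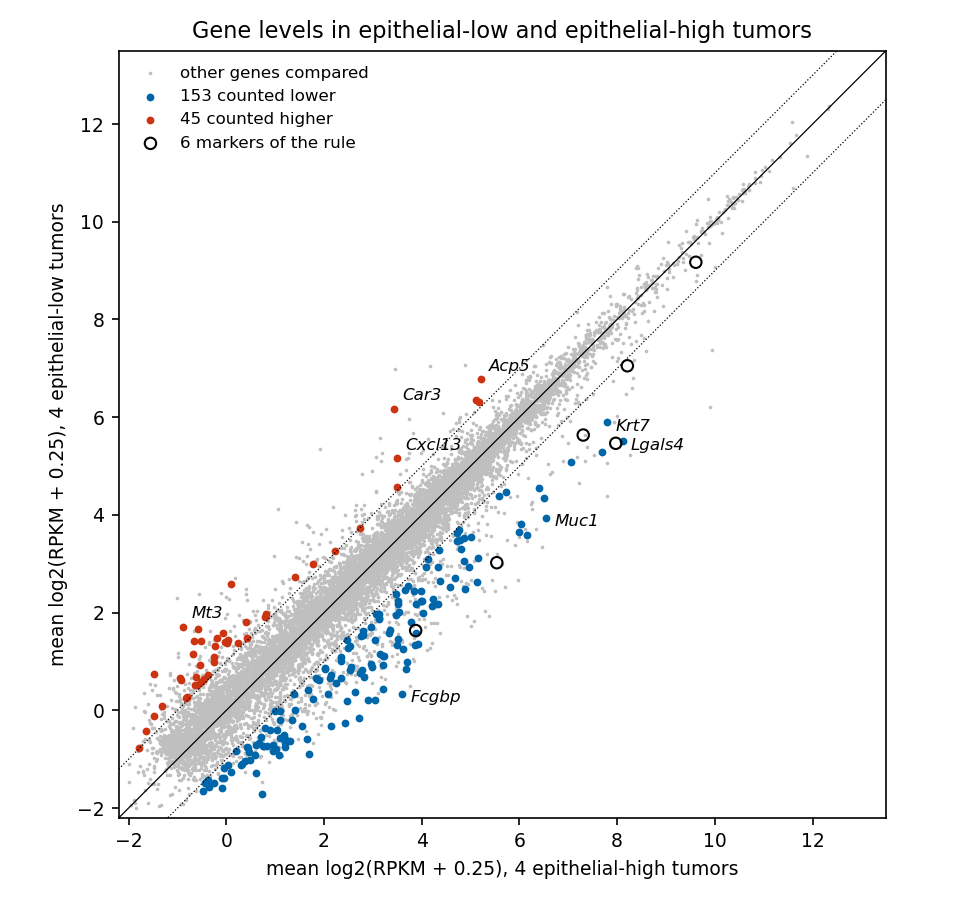
Mean log2(RPKM + 0.25) of each gene in the 4 epithelial-high tumors (horizontal) and the 4 epithelial-low tumors (vertical), with the line of equality, dotted lines at 2-fold, counted genes in color and the 6 markers as open circles. The 153 lower genes reach up to the level of Lgals4 and Krt7, while most of the 45 higher genes are weakly expressed.

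The 10 largest deficits in epithelial-low tumors were spread over mucus and surface proteins, metabolic enzymes and genes of less known role. Fcgbp, a mucus protein, had 0.0462, 0.517, 1.81 and 5.11 RPKM in the epithelial-low tumors and 5.58, 13.7, 13.8 and 18.3 in the epithelial-high ones, a log2 difference of −3.26 or 9.59-fold. Muc1, a transmembrane mucin of the luminal surface, had 1.45, 13.8, 35.2 and 64.6 RPKM against 83.2, 68.7, 94.7 and 138 (log2 difference −2.61). The most abundant counted gene was Lgals4, a galectin of the gut epithelium, with 4.31, 34.7, 126 and 212 RPKM against 231, 222, 300 and 379 (−2.60). In each of these the order within the class repeated that of the markers, and plus-dox 1 nearly reached the lowest epithelial-high tumor. The other genes among the 10 largest differences were Fam3b (−2.88), Cyp2c65 (−2.83), Sult1d1 (−2.83), Rab25 (−2.77), Gm3336 (−2.72), Hsd17b2 (−2.69) and Duoxa2 (−2.69). The GTPase Rab25, which directs recycling to the apical membrane, had 0.0288 RPKM in plus-dox 2 and 4.70 to 17.4 in epithelial-high tumors. Next in abundance after Lgals4 came the keratin Krt7 (−1.91), the protease cathepsin E (Ctse, −2.40), the carbonic anhydrase Car9 (−1.98) and the cadherin Cdh17 of gut epithelium (−1.86). Car9 is also a classical hypoxia gene. All 17 genes of the hypoxia and glycolysis list were lower in epithelial-low tumors, but by a median of only −0.31, and Car9 was the 1 that was counted.

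Of the 18 measured tight-junction genes 17 were lower and 4 were counted, with a median of −1.34 against −0.00 over all genes. Over all genes compared, 50.1% were lower and 1.05% were counted lower. The size of this median depended on the 2 lowest tumors, since it was −0.48 when they were left out and the other 10 were ranked. Ocln, the occludin of tight-junction strands, had 0.861, 4.76, 13.1 and 19.5 RPKM in the epithelial-low tumors against 24.8, 36.0, 39.3 and 41.6 (−2.50). Tjp1, the scaffold ZO-1 beneath the strands, had 17.6, 18.6, 24.8 and 26.1 RPKM against 31.9, 30.6, 31.5 and 27.1, a difference of only −0.49. Cldn2 overlapped, with 63.5, 110, 60.2 and 136 RPKM against 84.0, 175, 97.5 and 138. The counted claudins Cldn3 (−1.41), Cldn7 (−1.89) and Cldn23 (−2.09) were scarce. In the middle tumors plus-dox 4 and plus-dox 3, Cldn3 stood at 13.2 and 10.5 RPKM against at most 2.29 in the other 10, and the same pair alone had Xist RNA (4.89 and 4.25 RPKM, at most 0.0485 elsewhere) and abundant Mal2 (21.2 and 13.9 RPKM, at most 0.572 elsewhere), so these levels rest on 2 tumors outside both classes.

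Among the 17 desmosome and adherens-junction genes 13 were lower and 3 were counted, with a median of −0.48, and −0.47 when the 2 lowest tumors were left out. Whether the tight-junction and desmosome lists differ was not tested. Dsg2, a desmosomal cadherin, had 0.921, 4.52, 6.36 and 9.73 RPKM against 16.1, 20.4, 19.0 and 18.1 (−2.09), and Dsp, which links desmosomes to keratin filaments, 4.40, 12.3, 12.8 and 21.1 against 25.2, 29.9, 29.3 and 24.7 (−1.28). The catenins that bind cadherin tails differed little, with log2 differences of −0.45 for Ctnna1, −0.41 for Ctnnb1 and −0.44 for Ctnnd1. The laminin-332 chain Lama3 (−1.74) was counted, whereas Itga6, the integrin chain of hemidesmosomes, had 194, 134, 41.4 and 48.3 RPKM against 80.1, 58.5, 51.1 and 63.5, so that only the 2 lowest tumors were above the other class.

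Of the 5 simple keratins outside the markers 3 were counted, with a median of −1.82 for the list, −1.20 without plus-dox 2 and −0.91 without the 2 lowest tumors. Krt7 had 13.5, 77.5, 90.2 and 129 RPKM against 205, 190, 210 and 303. Krt20 (−1.82) and Krt23 (−2.16) were counted as well. Krt8, the partner of Krt18 in filaments, had 532, 525, 318 and 588 RPKM against 525, 972, 810 and 966 (−0.73) and overlapped, like Krt18. Krt80, a keratin of low level here, had 1.71, 1.35, 2.36 and 2.48 RPKM against 3.07, 2.67, 2.34 and 2.81 (−0.44).

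Of 25 measured genes of the epithelial surface, 22 were lower and 6 were counted, with a median of −1.91, namely Muc1, Muc4, Rab25, Prss8, the membrane protease St14 (−2.03) and its inhibitor Spint1 (−2.15). The median was −1.14 without plus-dox 2 and −0.57 without the 2 lowest tumors. Spint1 had 0.556, 0.944, 2.24 and 2.47 RPKM in the epithelial-low tumors against 3.82, 6.21, 8.60 and 10.5. Tspan8 and Spint2, the most abundant members, differed by −0.84 and −1.52 and overlapped between the classes. The trefoil peptide Tff2, a mucus component of the stomach, was at 1.18 and 1.96 RPKM in plus-dox 2 and off-dox 4 and at 20.9 to 137 in the other 10 tumors.

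The factors that maintain epithelial transcription were lower in 12 of 12 measured cases, with a median of −0.82, and 1 was counted. That gene, the ETS factor Elf3, had 2.67, 12.2, 25.5 and 42.2 RPKM in the epithelial-low tumors against 53.1, 59.4, 66.8 and 83.7 (−2.20). Its relative Ehf (−2.34) had 1.32, 5.32, 20.8 and 38.7 RPKM against 33.3, 56.9, 46.0 and 53.3. It missed the count because plus-dox 1 overlapped the lowest epithelial-high tumor. Esrp2, the paralog of Esrp1, had 1.78, 3.15, 5.64 and 8.87 RPKM against 7.58, 8.82, 9.95 and 11.7 (−1.14). Other members were Tfcp2l1 (−1.67), Klf5 (−0.90), Ovol1 (−0.73), Foxa1 (−0.60), Grhl1 (−0.49), Foxa2 (−0.43), Foxa3 (−0.35) and Klf4 (−0.01). Grhl2, Grhl3, Ovol2, Elf5 and Trp63 had a mean of at most 0.25 RPKM. Klf4, a factor of differentiating epithelium, was at 18.2, 12.7, 16.5 and 14.9 RPKM against 14.4, 19.0, 16.3 and 13.1 and thus did not follow the markers. Of 11 factors of pancreas and foregut all were lower, by a median of −0.54, and 1, Onecut2 (−1.25), was counted. Sox9 of the duct lineage differed by only −0.10.

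The E-box hexamer CAGGTG, or CACCTG when read on the other strand, is the sequence that Snail and Zeb factors bind. The promoters of 4 genes, Epcam, Cldn4, Rab25 and Muc1, are shown as picked examples that all hold it. Epcam and Cldn4 are markers of the rule, so the ranking itself made them low. Fcgbp, Fam3b, Cyp2c65 and Sult1d1 had larger deficits than Rab25 and Muc1, and their promoters are not shown. Each run is the 250 bases before the RefSeq gene start, 5′ to 3′ on the strand of the gene, in build GRCm38.p6, which differs from the mm9 build of the deposited values, and capitals mark the hexamer. The Epcam stretch is chr17:87635729-87635978 on the plus strand, that of Cldn4 chr5:134946935-134947184 on the minus strand, that of Rab25 chr3:88548280-88548529 on the minus strand and that of Muc1 chr3:89228806-89229055 on the plus strand.
Epcam: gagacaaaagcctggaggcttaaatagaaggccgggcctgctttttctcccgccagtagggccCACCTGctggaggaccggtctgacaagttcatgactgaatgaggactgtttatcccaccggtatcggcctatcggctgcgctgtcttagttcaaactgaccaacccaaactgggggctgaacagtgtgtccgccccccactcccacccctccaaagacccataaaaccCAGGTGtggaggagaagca
Cldn4: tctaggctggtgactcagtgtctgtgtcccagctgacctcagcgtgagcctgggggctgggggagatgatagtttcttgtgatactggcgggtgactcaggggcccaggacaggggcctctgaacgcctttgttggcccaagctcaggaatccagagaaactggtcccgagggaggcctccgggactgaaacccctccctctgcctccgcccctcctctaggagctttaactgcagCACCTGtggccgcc
Rab25: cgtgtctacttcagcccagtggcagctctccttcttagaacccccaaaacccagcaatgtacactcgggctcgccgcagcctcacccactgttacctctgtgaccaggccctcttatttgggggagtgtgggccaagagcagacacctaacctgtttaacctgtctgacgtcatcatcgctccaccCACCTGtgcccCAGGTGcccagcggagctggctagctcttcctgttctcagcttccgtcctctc
Muc1: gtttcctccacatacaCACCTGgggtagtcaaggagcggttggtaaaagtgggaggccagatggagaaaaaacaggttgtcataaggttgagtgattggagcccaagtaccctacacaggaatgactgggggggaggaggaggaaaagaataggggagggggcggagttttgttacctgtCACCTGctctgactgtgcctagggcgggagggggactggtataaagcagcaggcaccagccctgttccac
Counted from the gene start, the first bases of the hexamers are at −187 and −19 in Epcam, −14 in Cldn4, −64 and −53 in Rab25 and −234 and −70 in Muc1. Of the 153 genes counted lower, 100 had an entry in the promoter table, and 44 of their 130 promoters (33.8%) held at least 1 hexamer on either strand. Among the 45 higher genes 33 had an entry, with the hexamer in 6 of 41 promoters (14.6%). Over all 32851 promoters of this length the share was 17.2%, and over the 12984 promoters of the genes compared it was 15.9%. The difference between these shares was not tested. A match describes letters and was not tested as a binding site. Cdh1, Krt19 and Esrp1 had no entry. All 3 markers with an entry held the hexamer, among them Krt18, whose RNA overlapped between the classes.

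The 45 genes counted higher in epithelial-low tumors were fewer, weaker and more mixed. Their median of the mean level was 1.65 RPKM, against 4.23 RPKM for the 153 lower genes, and plus-dox 2 held the highest value for 30. Among the 10 largest differences were Car3 (2.74), Mt3 (2.59), Nhedc2 (2.48), Retn (2.24), Selp (2.08), 4833422F24Rik (1.93), Tnfsf11 (1.83), Htr1b (1.68), Cxcl13 (1.67) and Ripply1 (1.64). The carbonic anhydrase Car3, abundant in fat and muscle, had 66.8, 69.6, 76.9 and 75.1 RPKM in the epithelial-low tumors against 66.2, 0.972, 7.92 and 20.3, and 4.16 to 253 in the middle tumors, which include the highest values of all. Retn, the adipocyte hormone resistin, had 3.77, 1.48, 1.54 and 7.64 RPKM against 1.35, 0.0210, 0.0633 and 1.21 and reached 18.6 in the middle tumor no-dox 1. The chemokine Cxcl13 was at 55.3, 26.9, 23.2 and 45.8 RPKM against 17.7, 8.50, 9.78 and 9.80.

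Other higher genes stood out mainly in the 2 lowest tumors. Acp5, the tartrate-resistant phosphatase of osteoclasts and some macrophages, had 302, 202, 47.0 and 49.8 RPKM against 46.5, 26.4, 37.1 and 40.1. Tnfsf11, the cytokine RANKL, had 5.09, 4.02, 0.853 and 0.724 RPKM against 0.555, 0.217, 0.273 and 0.535. Id3, an inhibitor of helix-loop-helix factors, had 145, 135, 39.9 and 56.8 RPKM against 32.5, 35.7, 39.6 and 29.8. In these genes off-dox 3 and plus-dox 1 lay only slightly above the epithelial-high range. Cthrc1, a secreted protein of matrix-producing cells, was an exception, with 132, 67.8, 67.0 and 65.7 RPKM against 46.2, 26.1, 34.6 and 38.7. Its values in the middle tumors were 59.8 to 86.5 RPKM, so off-dox 4 did not stand out.

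The EMT transcription factors were not among the counted genes. Of the 18 measured, 16 were higher in epithelial-low tumors, by a median of 0.30 on the log2 scale (0.26 among the off-dox tumors alone), and 0 were counted. Over all genes compared, only 0.309% were counted higher. Zeb1 had 12.6, 14.1, 16.7 and 10.7 RPKM in the epithelial-low tumors against 14.1, 9.87, 11.6 and 8.29 (0.30), and its relative Zeb2 15.5, 14.1, 15.5 and 9.15 against 14.9, 7.19, 8.94 and 8.10 (0.49). Snai1 had 20.1, 12.3, 9.03 and 8.77 RPKM against 6.83, 7.77, 10.7 and 8.27 (0.50). Snai2 had 7.65, 5.31, 3.92 and 3.36 RPKM against 3.38, 2.25, 3.18 and 3.20 (0.65), so that off-dox 3 and plus-dox 1 differed from the epithelial-high tumors by less than 2-fold although only plus-dox 1 overlapped them. Twist1 was at 16.7, 9.31, 13.3 and 10.6 RPKM against 9.21, 8.14, 12.8 and 9.82 (0.30). Hmga2, a chromatin protein of embryonic and EMT states, showed the largest difference of the list (1.17), with 113, 134, 47.4 and 27.2 RPKM against 54.5, 28.1, 26.2 and 19.0. The homeobox factor Prrx2 differed by 0.74, Tbx3 by 0.39, Foxc2 by 0.33, Foxf1a by 0.28, Foxc1 by 0.10, Prrx1 by 0.09, Twist2 by 0.07, Snai3 by 0.03 and Tcf4 by 0.03, while Sox4 (−0.20) and Sox11 (−0.23) were lower. Between dox groups edgeR called 2 of these 18 genes, both in off-dox against no-dox tumors, Zeb1 (0.67 ± 0.12 as log2 fold change and standard error, adjusted p = 0.079 by edgeR) and Zeb2 (0.71 ± 0.19, adjusted p = 0.097 by edgeR), while 4 of the 18 (22.2%) had an unadjusted p under 0.05, near the 20.4% of all genes tested. Both calls belong to the 235 that lay near the limit and changed in number when single tumors were left out.

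Mesenchymal genes followed the same pattern on a small scale. Of 17 measured, 14 were higher in epithelial-low tumors, by a median of 0.35 (0.16 among the off-dox tumors alone), and 0 were counted. Vim, which encodes the intermediate filament of mesenchymal cells, had 1756, 1041, 720 and 746 RPKM against 776, 828, 781 and 731 (0.35). The matrix protein Sparc had 1741, 877, 850 and 960 RPKM against 763, 762, 780 and 901, and S100a4 609, 564, 1608 and 612 against 607, 434, 662 and 434. Only plus-dox 2 and, less so, off-dox 4 exceeded the epithelial-high range of Vim. The integrin chain Itga5 (0.82) and the receptor Axl (0.73) had the largest differences of the list, at 75.9, 88.6, 22.4 and 21.5 RPKM and 134, 159, 78.1 and 60.5 RPKM in epithelial-low tumors, against 19.9 to 34.5 and 49.0 to 73.8 RPKM. The median over the list relative to epithelial-high tumors was 0.67 in the 2 lowest tumors and −0.09 in off-dox 3 and plus-dox 1.

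**Figure D3:**
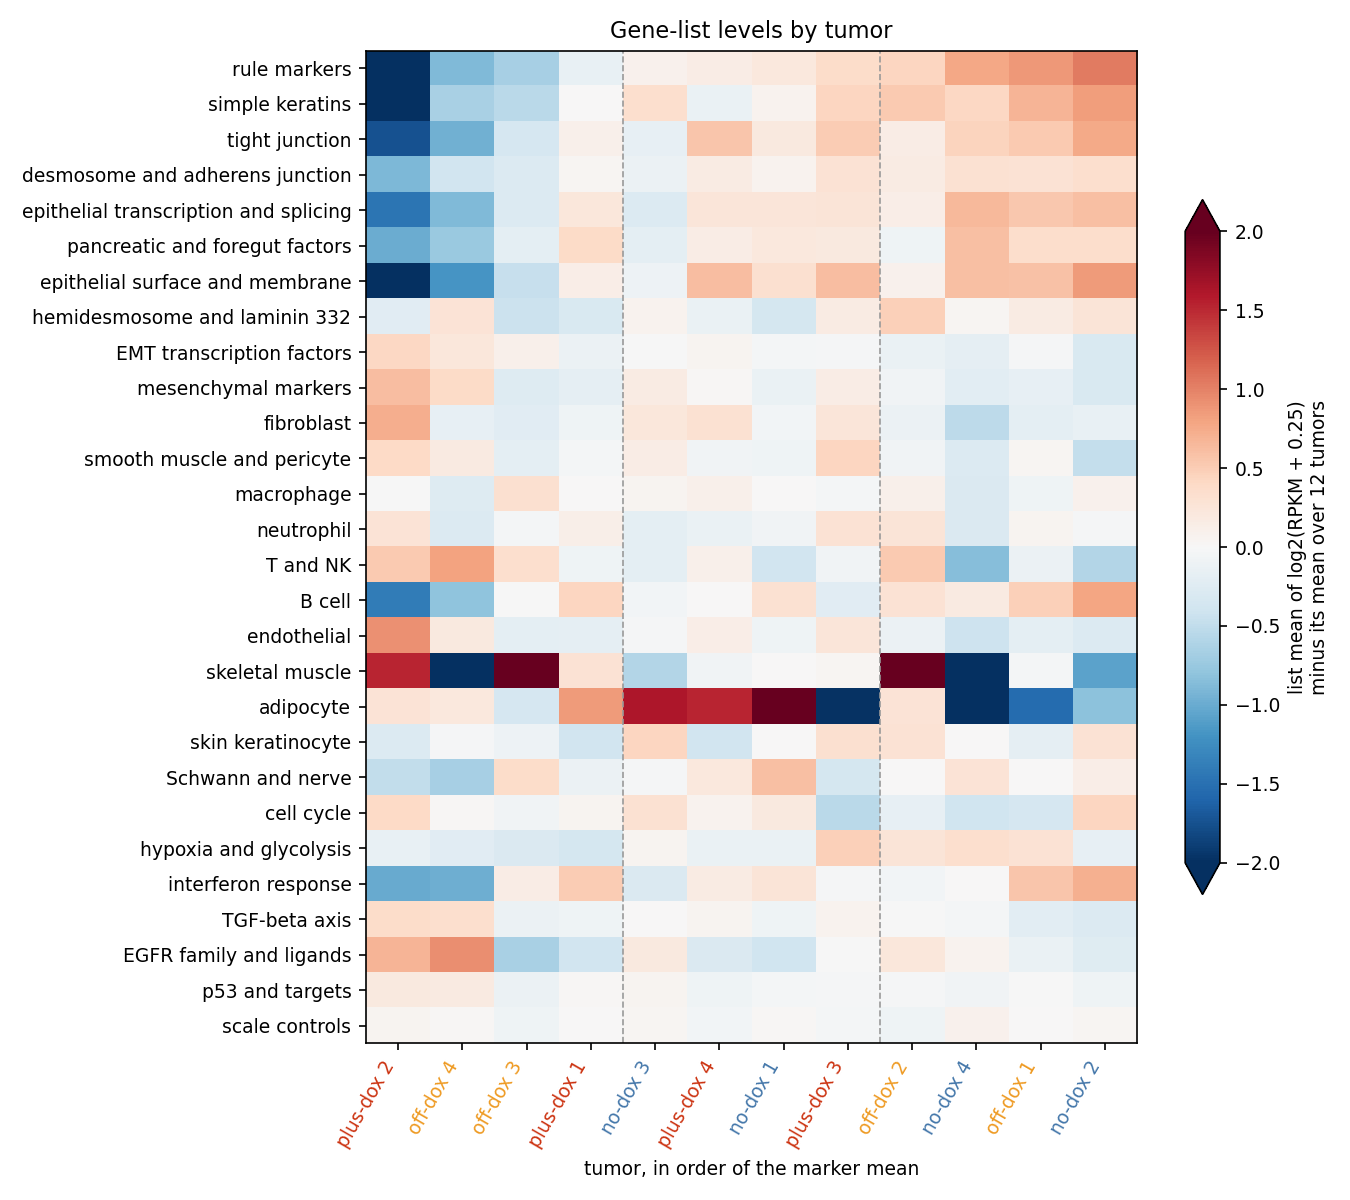
Level of each gene list in each tumor, as the mean log2(RPKM + 0.25) of its measured genes minus the mean over the 12 tumors (color, with values beyond 2 at the end of the scale), with tumors ordered by the marker mean. Keratin, junction, transcription factor and surface lists are lowest in plus-dox 2 and next lowest in off-dox 4, plus-dox 1 is close to the middle tumors, mesenchymal and EMT lists are slightly higher in the first columns, and skeletal muscle and adipocyte lists vary widely within each class.

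The 2 lowest tumors, plus-dox 2 and off-dox 4, stood apart from the other 10 in a further set of genes, a comparison chosen after the values were seen. In both, 272 genes (1.87% of those compared) were more than 2-fold below each of the other 10 tumors and 118 (0.809%) more than 2-fold above. Ligands of growth factor receptors were among the latter. Inhba, which encodes the activin A subunit, had 97.9 RPKM in plus-dox 2 and 125 in off-dox 4, against 8.83 to 28.3 in the other 10. Bmp7, a bone morphogenetic protein, had 84.2 and 133 RPKM against 3.72 to 41.2, and Hbegf, a ligand of the EGF receptor, 112 and 107 against 25.1 to 48.2. The EGF receptor ligands Areg (78.6 and 124 RPKM, against 9.71 to 48.9) and Ereg (19.7 and 25.8, against 2.96 to 9.84) were also highest in this pair, but missed the 2-fold distance to all other tumors. Tgfb1, the ligand best known for inducing EMT, had 81.5 and 76.6 RPKM against 27.3 to 38.1, whereas the receptor genes Tgfbr1 and Tgfbr2 stayed within the range of the other tumors or, for Tgfbr2 in off-dox 4, below it, at 36.0 RPKM. The receptor genes Egfr, Erbb2 and Erbb3 were not raised, and Erbb3 was at 0.773 and 2.54 RPKM against 7.59 to 21.9. The matrix protease gene Mmp9 had 173 and 111 RPKM against 9.77 to 32.5.

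Of 17 measured interferon-response genes 16 were lower in epithelial-low tumors, 0 were counted and only 1, Ifit1, was among the 272 genes. Their median was −1.44 in plus-dox 2 and off-dox 4 and 0.03 in off-dox 3 and plus-dox 1, relative to epithelial-high tumors, and the class difference of −0.71 became −0.43 without plus-dox 2. Ifit1, an interferon-induced inhibitor of viral translation, had 7.001 and 6.61 RPKM in the pair against 15.2 to 37.6 in the other 10. The secreted epithelial products at the low end of the pair included, beside Tff2, Lcn2 with 14.8 and 32.2 RPKM against 106 to 538. No-dox 3 and off-dox 2, which are not epithelial-low tumors, had the next highest values of Areg (48.9 and 35.6 RPKM), Bmp7 (41.2 and 21.2) and Hmga2 (62.2 and 54.5).

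Plus-dox 2 alone showed a sharply bounded run of neighbours on chromosome 5 of mm9, examined after its values were seen. From Tecpr1 to Atp5j2 (144956218 to 145952461, 996 kb), each of 12 genes was above the median of the 12 tumors by 1.54 to 3.02 on the log2 scale, with a median of 1.67 or 3.19-fold. The run includes Arpc1a and Arpc1b, subunits of the actin-nucleating Arp2/3 complex, the ubiquitin ligase gene Smurf1 and the histone acetyltransferase cofactor Trrap. The 9 measured genes on its flanks lay between −0.59 and 0.06 in the same tumor, and the median of the 12 genes in each of the other 11 tumors was between −0.22 and 0.11. Tecpr1 was also higher in off-dox 4, by 0.95. DNA was not measured here, and copy number was not tested.

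**Figure D4:**
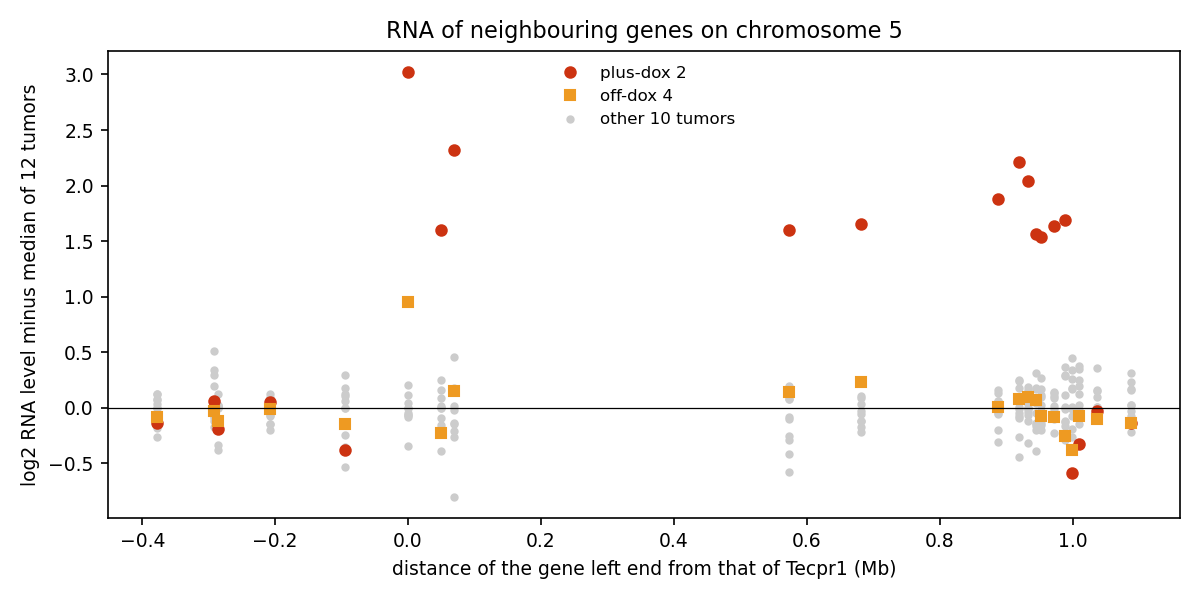
RNA of neighbouring genes on chromosome 5, as log2(RPKM + 0.25) minus the median of the 12 tumors, against the distance in Mb of each gene's left end from that of Tecpr1, with plus-dox 2 and off-dox 4 in color and the other 10 tumors in grey. Plus-dox 2 is higher by 1.54 to 3.02 over the run of 12 genes and not on its flanks.

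Genes of other cell types in the tumors varied beside these differences. Summed over each list, fibroblast genes ran from 2073 to 4584 RPKM in epithelial-low and from 1794 to 2354 in epithelial-high tumors, with 17 of 20 higher by a median of 0.29 (0.01 among the off-dox tumors alone) and 0 counted, and plus-dox 2 was the highest. Endothelial genes were higher in 17 of 17 cases, by a median of 0.42, with sums of 95.5 to 251 against 82.1 to 100 RPKM. The median was 0.80 in the 2 lowest tumors but 0.06 in off-dox 3 and plus-dox 1. Among the off-dox tumors alone it was 0.17, with 13 of 17 higher. Cdh5, the cadherin of endothelial cells, had 57.7, 16.4, 6.63 and 7.68 RPKM against 8.01, 5.71, 7.56 and 6.28. Macrophage sums overlapped, at 5379 to 8138 against 6707 to 8264 RPKM, with a median difference of 0.09. Smooth muscle and pericyte genes differed by a median of 0.33 (0.05 among the off-dox tumors alone) and neutrophil genes by 0.22, with 0 counted in both. The neutrophil median among the off-dox tumors alone had the opposite sign (−0.38). Of 14 T and NK genes 7 were measured. Cd3d, Cd3e, Cd3g, Cd8a, Cd8b1 and Cd2 were not, with a mean of at most 0.25 RPKM. The 7 were all higher, by a median of 0.52 (0.29 among the off-dox tumors alone). List sums were only 10.1 to 23.3 against 5.02 to 19.5 RPKM. Whether T or NK cells made this RNA was not tested. Whether these cell types had a part in the epithelial differences was not tested.

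Muscle and fat genes varied widely within each class. Skeletal muscle genes were higher in 19 of 21 cases, by a median of 0.90, with 0 counted, but their median among the off-dox tumors alone had the opposite sign (−0.76). Their sums ran from 83.6 to 1901 RPKM in epithelial-low and from 38.1 to 1207 in epithelial-high tumors. Myh4, a myosin of fast muscle fibers, had 33.3, 0.837, 77.4 and 14.9 RPKM against 50.4, 0.143, 0.799 and 2.29. Of the adipocyte genes 14 of 17 were higher, by a median of 1.59 (0.49 among the off-dox tumors alone). Their sums were 235 to 659 against 61.1 to 315 RPKM and 59.5 to 1474 in the middle tumors, and 2 genes were counted higher, Car3 and Retn described above, while 1, Pparg, was counted lower. Skin keratinocyte genes had a median difference of −0.09 and Schwann and nerve genes of −0.01, with 2 and 0 counted lower. Only 2 of 8 B cell genes were measured, at a median of −0.88. Cell cycle genes differed by a median of 0.21, TGF-beta axis genes by 0.21, EGFR family genes by 0.26 and p53 target genes by 0.12, each with 0 counted. The EGFR family median changed sign without off-dox 4 (−0.21) and without the 2 lowest tumors (−0.40). Mki67, a marker of proliferating cells, had 9.40, 9.37, 11.6 and 10.1 RPKM in epithelial-low and 10.4, 6.59, 8.30 and 11.8 in epithelial-high tumors, and Pdgfrb, a receptor of pericytes and fibroblasts, 29.3, 23.2, 15.4 and 13.03 against 14.8, 12.9, 18.2 and 12.8, both with overlap. The 12 genes used to check the scale had a median difference of 0.00.

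**Figure D5:**
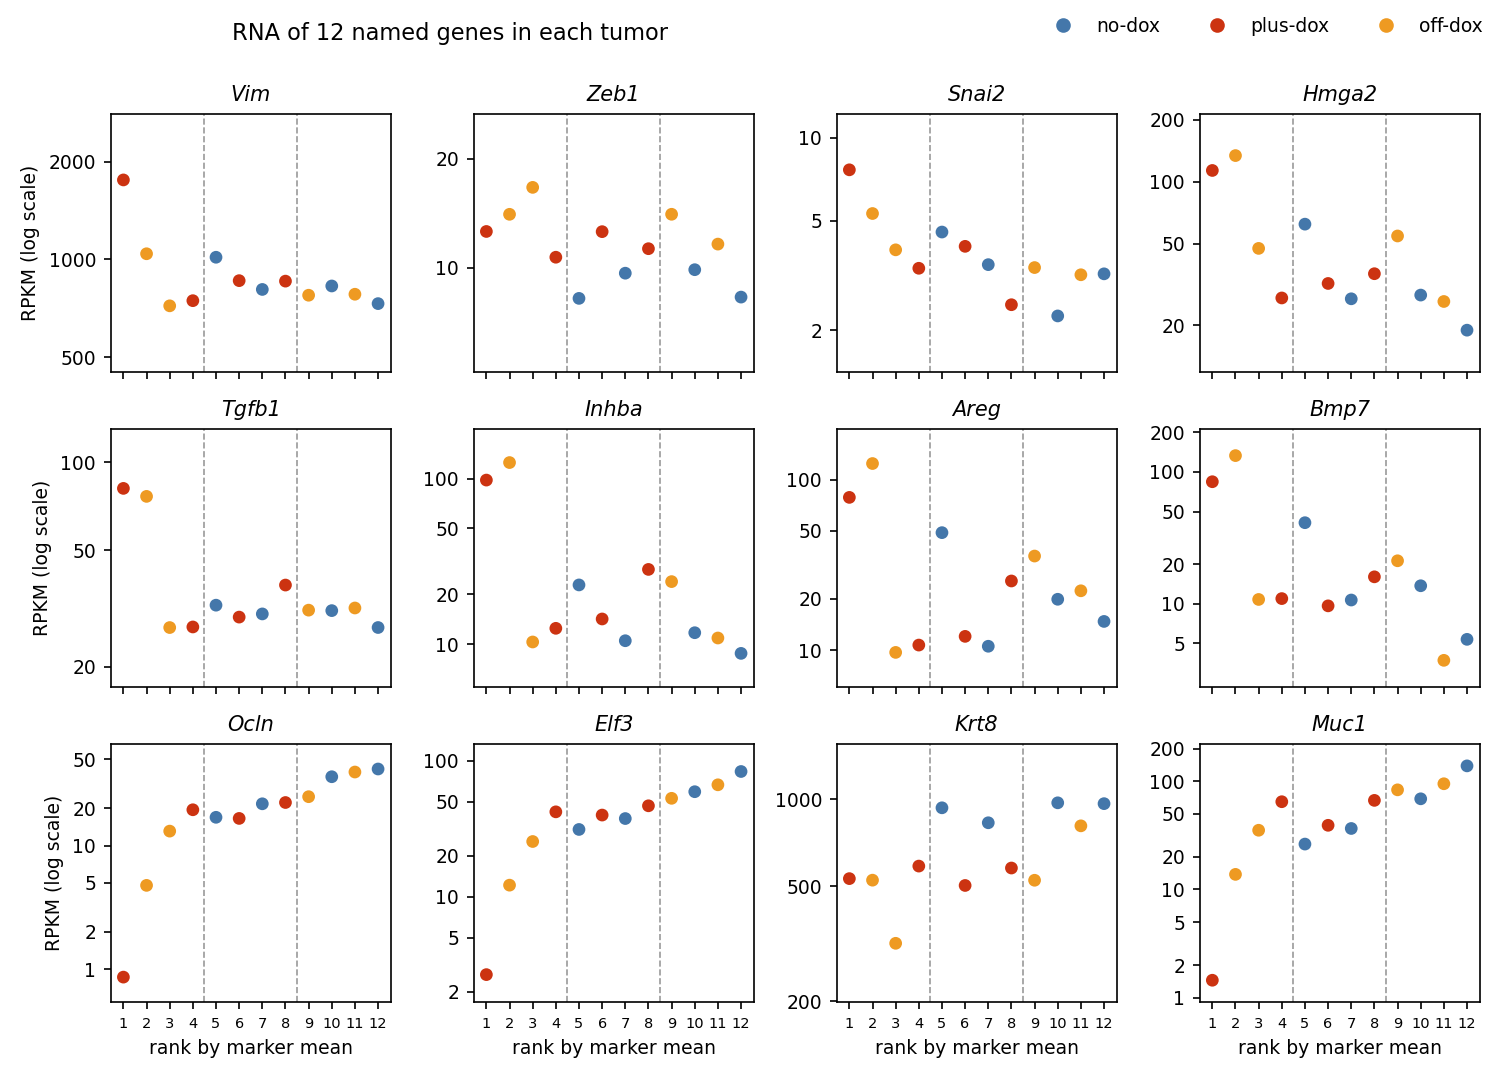
RPKM of 12 genes on log axes, each scaled to its gene, with tumors by rank of the marker mean (1 is plus-dox 2, 12 is no-dox 2), dashed lines between the classes and color for the dox group. Hmga2, Tgfb1, Inhba, Areg and Bmp7 are highest at ranks 1 and 2, and Ocln, Elf3 and Muc1 climb with rank. Krt8 is on average higher in epithelial-high tumors but overlaps between the classes, and Zeb1 does not climb.

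The depth behind these values was high in every tumor, between 19845923 and 33137609 reads counted on genes. Genes took 81.1% to 87.1% of mapped reads in epithelial-low and 82.0% to 89.4% in epithelial-high tumors. The most alike tumors of the 12, plus-dox 1 and no-dox 1, differed by a root mean square of 0.32 on the log2 scale over the genes compared, and the least alike, plus-dox 2 and no-dox 4, by 1.07. Plus-dox 1 was therefore closest in its whole profile to a middle tumor, although its rank put it in the epithelial-low class. Over the 6 epithelial gene lists edgeR called 0 of 88 genes in any pair of dox groups. Without adjustment, 11 of the 88 (12.5%) had a p under 0.05 for off-dox against no-dox, 16 (18.2%) for plus-dox against no-dox and 7 (7.95%) for off-dox against plus-dox, beside 20.4%, 13.7% and 3.06% of all genes tested.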

How the data were processed

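RNA of 12 tumors was sequenced by the authors as 50-base single-end polyA+ libraries without strand and mapped to mm9 with TopHat 1.4.1, with Bowtie 0.12.8, CASAVA 1.8.2 and bedtools 2.16.2 named in the processing notes. The deposited expected counts are the authors' estimated counts from read coverage of unambiguous exonic spans of RefSeq models, and the deposited RPKM values are the authors' scaling of them to exon length and mapped reads. Overlapping and antisense genes cannot be separated without strand, and 75 symbols stand on several rows, which were kept apart.

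Tumors were ranked by the mean log2(RPKM + 0.25) of 6 markers, and the 4 lowest and 4 highest compared over genes with a mean above 0.25 RPKM, with no test, since the markers chose the tumors. Named genes are the 6 markers, the 10 largest differences (mean above 1 RPKM) and the 5 most abundant among counted genes in each direction, the 3 most abundant and 2 most different members of each of 29 gene lists, all members of the keratin, EMT factor, epithelial factor and sex-linked lists, and Trp53, Zeb1, Vim, Twist1, Krt19, Mki67 and Pdgfrb; further list members and the genes around Tecpr1 were chosen after their values were seen, and not every gene that meets the rule is printed. Some items are not reported here. The ranking rule, the members and the lists were chosen with earlier results of these data known. Dox groups were taken from the labels and tested with edgeR 4.0.16 (quasi-likelihood, Benjamini-Hochberg, all 12 tumors in the fit) on expected counts rounded to whole numbers, for genes with at least 10 counts in all, with the study's limits of a mean above 0.25 RPKM, a length above 250 bp, 1.5-fold and adjusted p under 0.1. Exact permutation tests of the marker mean were two-sided. Nothing says which tumors came from separate mice, so p-values measure the spread between these tumors. Alternatives were DESeq2 1.42.0, other pseudocounts, filters, scalings and class sizes, markers or tumors left out, and a replicate block. R 4.3.3, Python 3.11.15, pandas 2.3.3, numpy 2.4.6 and matplotlib 3.10.9 were used, and the edgeR step was tested on simulated data.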

Additional observations from a re-analysis of the deposited data

Results flagged for a closer look

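Within the labelled dox groups of 4 tumors, the gap of the highest or lowest tumor to its nearest neighbour was compared with the range of the group for 37 values. Of 111 groups, 5 (4.50%) passed Dixon's 95% critical value, and chance flags about 1 in 20 groups. Levels are log2(RPKM + 0.25). Among plus-dox tumors, plus-dox 2 stood below the others for Cdh1, at 4.48 with the nearest tumor at 6.71, for Epcam, at 3.00 with the nearest at 7.06, and for Esrp1, at −0.27 with the nearest at 2.95. These 3 genes belong to the markers that ranked the tumors. The mean over the epithelial transcription and splicing factors was 0.97 in plus-dox 2, with the nearest plus-dox tumor at 2.65. The skin keratinocyte list stood at 1.17 in plus-dox 3, above the nearest plus-dox tumor at 0.58.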

How the results depend on the processing

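The counts of 153 lower and 45 higher genes varied in size over the alternative runs. A gene is counted by its direction, so no run could turn a count around. With a pseudocount of 1 or 0.05 RPKM the higher genes numbered 19 and 74, and with TMM or RLE factors 73 and 75. Taking 3 tumors a side gave 925 lower and 410 higher, 6 a side 15 and 5, and a limit of 1.5-fold 249 and 154. A marker mean without Cldn4, which puts plus-dox 4 in the low class for plus-dox 1 and no-dox 1 in the high class for off-dox 2, gave 530 and 145, of which 88 and 19 were shared with the 153 and 45, and markers scaled to unit variance gave 100 higher. Leaving out the 2 lowest tumors and ranking the other 10 gave 47 lower genes, of which 43 were shared with the 153. It gave 35 higher genes, of which only 11 were shared with the 45. Among alternatives chosen after seeing the data, the off-dox tumors alone gave 495 and 109, and leaving out the tumors ranked 3 and 4 1138 and 610. With the 2 lowest left off the epithelial-low side there were 92 lower and 57 higher genes, of which 76 and 15 were shared with the 153 and 45. A side with fewer tumors overlaps less by construction. Leaving out 1 tumor gave 126 to 629 lower and 35 to 234 higher genes. Of 319 list medians under 11 alternatives, 309 stayed within 1 SD. Of the 10 that did not, 7 came from leaving out the 2 lowest tumors, which took the rule markers from −1.96 to −0.91, simple keratins from −1.82 to −0.91, tight junction from −1.34 to −0.48, epithelial surface from −1.91 to −0.57, smooth muscle and pericyte from 0.33 to 0.07, EGFR family from 0.26 to −0.40 and sex-linked from −0.03 to 0.11. The others were epithelial surface without plus-dox 2 (−1.14), T and NK without off-dox 2 (1.06) and skin keratinocyte without off-dox 3 (−0.41). With 1 tumor left out the skeletal muscle median ran from 0.04 to 1.80, and those of the macrophage (−0.03 to 0.23), skin keratinocyte (−0.41 to 0.07) and Schwann and nerve lists (−0.19 to 0.19) changed sign.

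Between off-dox and no-dox tumors DESeq2 called 615 genes, no filter on counts 122 and leaving out 1 tumor 0 to 789. Plus-dox against no-dox had 128 with DESeq2 and 0 to 3 with 1 tumor left out, and off-dox against plus-dox 6 and 0 to 1. The cause was not tested. The marker mean differences ranged from −1.26 to −0.41, from −0.90 to −0.32 and, for off-dox minus plus-dox, from −0.18 without plus-dox 2 to 0.67.

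With the replicate number as a block, edgeR called 0 genes in each comparison. Deviations of same-numbered tumors had a mean correlation of −0.08 over 12 pairs against 0.04 over 36 other pairs. The 12 ran from −0.45 to 0.57, so this average gives no sign of pairing by number but cannot exclude it for some tumors.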
